A study of Homo sapiens with 36 samples.

Results

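THP6 is a human acute lymphoblastic leukaemia line of T cell origin, and its response to a short hairpin RNA against GATA3 was measured by sequencing polyadenylated RNA. The comparison takes 2 libraries from THP6 cells with the shGATA3 hairpin and sets them against 3 libraries from THP6 cells with a scrambled hairpin, which are 5 of the 36 libraries of a study of 7 malignant T cell lines treated in the same way. It covers the 21138 genes that passed a filter on low counts, of 60623 gene identifiers. No other treatment, allele or time point is recorded, and all cells were kept in RPMI medium with serum. The labels give the control cells as wild type. They do not say whether the 2 knockdown libraries carry the same hairpin or whether replicates were separate cultures, so the p-values cover no more than how these libraries vary, and that variation may be technical.

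GATA3 is a zinc finger transcription factor that binds GATA motifs in DNA. It is needed for the commitment of thymic progenitors to the T lineage, for the development of CD4 T cells and for the T helper type 2 programme, and it restrains other blood lineages in early thymocytes. In T-ALL it is part of the network of transcription factors, with TAL1, RUNX1 and MYB, that keeps leukaemic cells in an immature thymocyte state.

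The 5 libraries held 18.62 to 27.87 M expected counts, and mitochondrial transcripts took 1.16% to 1.496% of them. Of 11 T cell defining markers 10 averaged at least 1 CPM (counts scaled to the same library total, as edgeR does), and their summed level was 1834 and 1706 CPM in the shGATA3 libraries and 1750 to 1863 CPM in the scramble libraries. The B cell list summed to 116 and 104 CPM in shGATA3 libraries and to 111 to 115 CPM in scramble libraries. Globin genes HBA1, HBA2 and HBB, the myeloid genes ELANE and S100A8 and the epithelial genes EPCAM and CDH1 had no count in any of the 5. Other markers of non-T lineages were detected. The myeloid gene ITGAM had 11.03 and 14.34 CPM in shGATA3 libraries and 15.48, 16.87 and 16.42 CPM in scramble libraries. CD68, also myeloid, had 0.3122 and 1.43 CPM in shGATA3 libraries and 0.1626, 0.06898 and 0.1449 CPM in scramble libraries. The NK cell gene NCR3 had 7.632 and 4.814 CPM in shGATA3 libraries and 5.594, 6.449 and 6.28 CPM in scramble libraries. The erythroid list held EPOR, described below. Knockdown library 2 stood apart. Its log2 levels correlated with those of knockdown library 1 at a Pearson r of 0.922 and with the scramble libraries at 0.927 to 0.934 (10546 genes), whereas knockdown library 1 correlated with the scramble libraries at 0.990 to 0.992 and these with each other at 0.991 to 0.997. These are correlations across genes, which are not independent replicates.

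GATA3 itself (ENSG00000107485, chr10:8045378-8075203, plus strand, GRCh38) had 55.7 and 73.5 CPM in the shGATA3 libraries and 145, 125 and 134 CPM in the scramble libraries. Both knockdown libraries lay below all 3 controls, and knockdown library 1 was the lower of the pair. The log2 fold change was -1.06 (SE 0.0941, adjusted p = 5.41e-08, edgeR quasi-likelihood test with Benjamini-Hochberg adjustment over all tested genes), and it was -1.27 without knockdown library 2 (adjusted p = 6.11e-09). Because the sources do not say whether counting used strand, reads that GATA3 shares with its antisense gene GATA3-AS1 may not be told apart. The same holds for LST1, which shares bases with NCR3 on the other strand, for B4GALT3 with PPOX and for ALDH1A2 with LIPC and AQP9.

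Across the transcriptome 1175 genes were called higher (5.56% of those tested) and 389 lower (1.84%) in shGATA3 than in scramble THP6 cells by edgeR at an adjusted p of 0.05 (7.40% in either direction). Of these, 667 rose with both knockdown libraries above all 3 controls (3.16% of tested genes) and 366 fell with both below them (1.73%), 4.89% together. This test borrows its estimate of spread from all 36 libraries. Fitted alone, the 5 THP6 libraries gave 0 genes (0% in each direction) by edgeR, with 797 at an unadjusted p below 0.05 and a lowest adjusted p of 0.504, and 21 genes by DESeq2, of which 20 were among the 1033 that did not overlap. With 2 libraries against 3, an exact permutation test of a single gene cannot go below 0.1.

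The calls also depended on which knockdown library was used. Without knockdown library 2, 23 genes were called higher (0.105% of 21898) and 51 lower (0.233%), and 60 of these 74 were among the 1033. Without knockdown library 1, 3764 genes were called higher (17.1% of 21954) and 4136 lower (18.8%). Regardless of any call, knockdown library 1 lay above all 3 controls for 29.4% of genes and below them for 20.2%, and knockdown library 2 for 35.1% and 34.2%. Both lay above all controls for 10.4% and below for 7.30%. The genes described first are therefore those that moved in both libraries. They were ranked by the smaller of the 2 changes, with at least 5 CPM in the group where they were higher. A fit without 1 of the knockdown libraries leaves 1 library in that group, with no spread between knockdown libraries. Genes named for moving in both libraries were chosen partly on the values of knockdown library 1. A call that they keep without knockdown library 2 reuses those values and is no independent check.

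**Figure D1:**
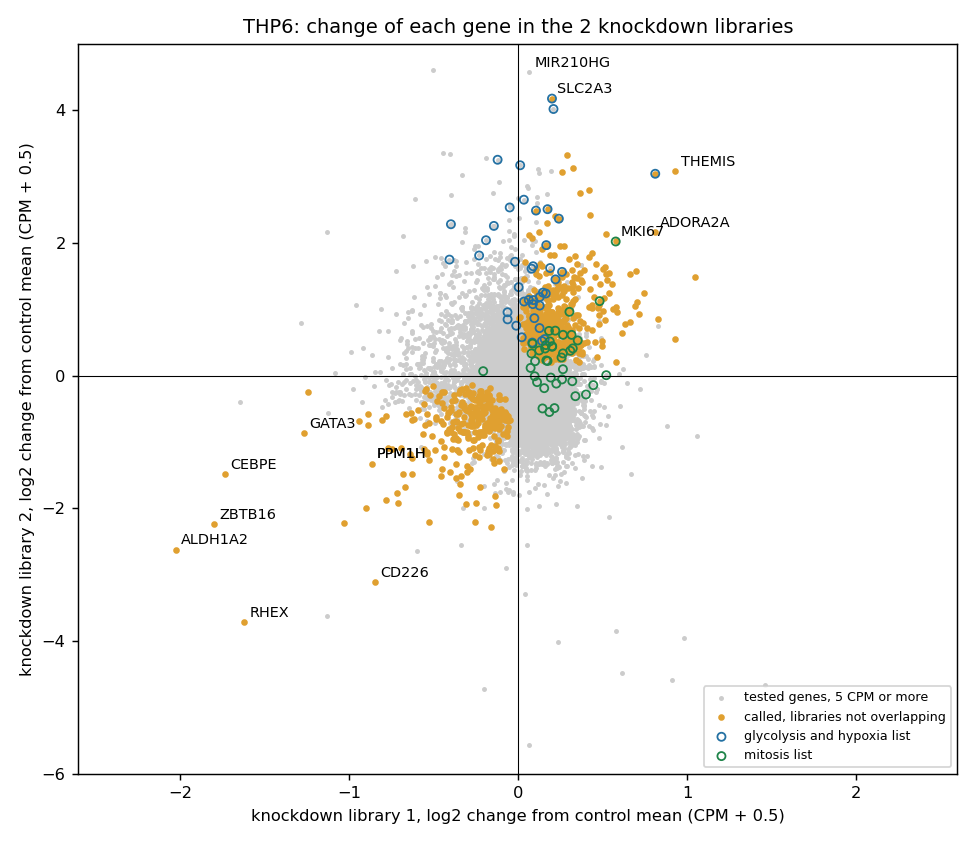
Each point is a tested gene with at least 5 CPM in the higher group, placed by its log2 change from the mean of the scramble libraries in knockdown library 1 (x axis) and in knockdown library 2 (y axis), after adding 0.5 CPM. ALDH1A2, ZBTB16, RHEX and CEBPE lie far from 0 on both axes, whereas the glycolysis and hypoxia genes (blue rings) spread mainly along the y axis. Orange points are genes called without overlap, and green rings mark the mitosis list.

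The genes that fell furthest in both knockdown libraries were ALDH1A2, ZBTB16, RHEX and CEBPE. ALDH1A2, the aldehyde dehydrogenase that makes retinoic acid from retinaldehyde (chr15:57953424-58497866, minus strand), had 10.5 and 6.77 CPM in shGATA3 libraries and 40.03, 47.7 and 45.2 CPM in scramble libraries. No shGATA3 value came near the lowest control. Its log2 fold change was -2.36 (SE 0.144, edgeR adjusted p = 1.36e-10), the lowest adjusted p of all tested genes. ZBTB16, which encodes the zinc finger factor PLZF of innate-like lymphocytes (chr11:114059593-114250676), had 1.21 and 0.768 CPM in shGATA3 libraries and 5.92, 4.73 and 5.75 CPM in scramble libraries. The groups did not overlap, at a low level of expression, and the log2 fold change was -2.46 (SE 0.236, edgeR adjusted p = 2.15e-06).

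RHEX, which encodes a regulator of human erythroid cell expansion that acts in erythropoietin signalling (chr1:206052723-206102459, plus strand), had 25.6 and 5.62 CPM in shGATA3 libraries and 77.7, 80.7 and 80.4 CPM in scramble libraries. The 3 controls were close together and both knockdown libraries were far below them, library 2 the lower. The log2 fold change was -2.35 (SE 0.359, edgeR adjusted p = 0.000797). CEBPE, the C/EBP family factor of late granulocyte differentiation (chr14:23117304-23119616, minus strand), had 6.49 and 7.81 CPM in shGATA3 libraries and 21.1, 23.1 and 23.9 CPM in scramble libraries. Here the 2 knockdown libraries were alike, and the log2 fold change was -1.67 (SE 0.174, edgeR adjusted p = 5.59e-06). PPM1H, a protein phosphatase that acts on Rab GTPases (chr12:62643982-62935037, minus strand), had 109 and 79.0 CPM in shGATA3 libraries and 198, 199 and 201 CPM in scramble libraries. The 3 controls were almost equal and both knockdown libraries lay well below them, with a log2 fold change of -1.08 (SE 0.106, edgeR adjusted p = 1.69e-06).

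Promoter windows of 4 of these genes are shown as the regulatory sequence beside genes that fell in both libraries. They come from RefSeq on GRCh38.p14 and run from 250 bases before to 50 bases after an annotated start, 5′ to 3′ along the gene. Capitals mark the letters AGATAA or the letters AGATAG, and likewise TGATAA or the variant TGATAG, on either strand, which are short forms of the motif GATA factors bind.
ALDH1A2, chr15:58065662-58065961, minus strand: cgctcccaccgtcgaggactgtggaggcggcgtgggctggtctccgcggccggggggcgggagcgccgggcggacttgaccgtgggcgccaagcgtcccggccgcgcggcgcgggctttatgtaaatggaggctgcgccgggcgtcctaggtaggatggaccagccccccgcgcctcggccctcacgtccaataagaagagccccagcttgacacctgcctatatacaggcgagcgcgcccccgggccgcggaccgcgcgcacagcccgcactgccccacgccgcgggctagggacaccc
ALDH1A2, second start, chr15:58013974-58014273, minus strand: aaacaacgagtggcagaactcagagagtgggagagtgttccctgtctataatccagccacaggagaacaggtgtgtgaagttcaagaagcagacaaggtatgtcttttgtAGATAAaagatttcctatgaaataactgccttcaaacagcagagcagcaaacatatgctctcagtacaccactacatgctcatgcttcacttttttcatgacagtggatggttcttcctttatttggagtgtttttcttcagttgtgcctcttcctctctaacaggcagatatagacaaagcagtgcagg
RHEX, chr1:206083345-206083644, plus strand: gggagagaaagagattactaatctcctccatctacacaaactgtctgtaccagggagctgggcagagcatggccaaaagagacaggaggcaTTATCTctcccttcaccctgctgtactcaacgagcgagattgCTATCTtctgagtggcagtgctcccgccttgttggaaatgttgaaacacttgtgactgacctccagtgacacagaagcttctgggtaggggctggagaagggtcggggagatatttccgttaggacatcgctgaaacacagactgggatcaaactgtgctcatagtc
CEBPE, chr14:23119206-23119505, minus strand: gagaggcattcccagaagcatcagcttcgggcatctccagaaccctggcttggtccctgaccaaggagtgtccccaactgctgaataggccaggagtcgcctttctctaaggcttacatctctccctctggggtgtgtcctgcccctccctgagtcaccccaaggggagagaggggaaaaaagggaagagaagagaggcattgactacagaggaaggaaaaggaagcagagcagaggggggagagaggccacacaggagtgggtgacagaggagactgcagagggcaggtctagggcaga
PPM1H, chr12:62935101-62935400, minus strand: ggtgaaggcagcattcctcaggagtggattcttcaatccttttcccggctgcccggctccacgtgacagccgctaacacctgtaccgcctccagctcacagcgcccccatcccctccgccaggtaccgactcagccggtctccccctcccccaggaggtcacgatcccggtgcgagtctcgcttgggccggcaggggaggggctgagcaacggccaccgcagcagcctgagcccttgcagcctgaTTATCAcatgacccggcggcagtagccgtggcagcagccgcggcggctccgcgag

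The RHEX window held 2 matches, the second ALDH1A2 start and PPM1H 1 each, and the first ALDH1A2 start and CEBPE none. Of the 14 genes other than GATA3 named here as lower in both libraries, 11 had a window by symbol and 7 held a match in at least 1 of them (8 of 17 windows, 47.1%). Of the 15 named as higher, 12 had a window and 6 held a match (9 of 33 windows, 27.3%). Among all 35116 windows 8769 held one (25%), and none of the 6 windows of GATA3 did. A match is a run of letters and not a site of binding, and genes with several starts count several times.

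CD226, CSF1 and B4GALT3 also fell in both knockdown libraries. CD226, the activating receptor DNAM-1 of T and NK cells, had 10.4 and 1.78 CPM in shGATA3 libraries and 20.1, 19.2 and 18.3 CPM in scramble libraries. CSF1, the macrophage colony stimulating factor, had 95.1 and 40.7 CPM in shGATA3 libraries and 182, 136 and 150 CPM in scramble libraries. B4GALT3, a galactosyltransferase, had 28.8 and 32.1 CPM in shGATA3 libraries and 55.7, 52.6 and 52.9 CPM in scramble libraries. No knockdown value of these 3 genes reached a control value, and of the 3 it is in B4GALT3 that the 2 knockdown libraries were most alike. Their log2 fold changes were -1.65 for CD226 (SE 0.315, edgeR adjusted p = 0.00196), -1.20 for CSF1 (SE 0.191, adjusted p = 0.000467) and -0.82 for B4GALT3 (SE 0.0737, adjusted p = 5.41e-08).

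Of the rest, CYP51A1, the lanosterol demethylase of cholesterol synthesis, had 2.74 and 1.01 CPM in shGATA3 libraries and 5.24, 6.07 and 5.31 CPM in scramble libraries. MAP3K21, a mixed lineage kinase, had 10.5 and 8.30 CPM in shGATA3 libraries and 18.9, 18.9 and 16.9 CPM in scramble libraries. LGALS12 (galectin 12), SLC7A8 (a neutral amino acid transporter) and the long non-coding RNAs CASC15 and LINC02706 completed the group, with log2 fold changes of -1.64, -0.99, -1.22 and -1.40 (edgeR adjusted p = 0.0075, 0.0181, 0.000606 and 0.026). Without knockdown library 2, LGALS12, SLC7A8 and LINC02706 lost the call, with log2 fold changes of -1.11, -0.80 and -0.87. All genes of this group were chosen partly by their change in knockdown library 1, so a call kept in that fit is no independent check.

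The genes that rose in both knockdown libraries were led by LTB, THEMIS and LST1. LTB, which encodes the membrane-bound lymphotoxin beta (chr6:31580525-31582522, minus strand), had 13.3 and 18.2 CPM in shGATA3 libraries and 6.504, 5.79 and 6.23 CPM in scramble libraries. Both knockdown values were above every control, and the log2 fold change was 1.35 (SE 0.152, edgeR adjusted p = 3.29e-06). LST1, a leukocyte-specific transcript of the same region of the major histocompatibility complex (chr6:31586124-31588909, plus strand), had 7.08 and 7.22 CPM in shGATA3 libraries and 3.87, 3.76 and 3.67 CPM in scramble libraries. Its 2 knockdown libraries were nearly equal, with a log2 fold change of 0.92 (SE 0.129, edgeR adjusted p = 9.22e-05).

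THEMIS, a scaffold of T cell receptor signalling needed for thymocyte positive selection (chr6:127708072-127918631), had 30.04 and 135 CPM in shGATA3 libraries and 16.1, 15.7 and 14.7 CPM in scramble libraries. ADORA2A, an adenosine receptor that damps T cell activation (chr22:24417879-24442360), had 16.2 and 42.1 CPM in shGATA3 libraries and 9.82, 9.002 and 8.26 CPM in scramble libraries. For both genes the controls were tight and knockdown library 2 was the higher of the pair. The log2 fold change was 2.41 for THEMIS (SE 0.283, edgeR adjusted p = 5.8e-06) and 1.68 for ADORA2A (SE 0.191, edgeR adjusted p = 3.37e-06). Without knockdown library 2 they were 0.95 and 0.84.

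TULP3, which carries receptors into cilia, had 31.4 and 44.9 CPM in shGATA3 libraries and 18.5, 19.5 and 17.5 CPM in scramble libraries. CFLAR, which encodes the caspase 8 inhibitor c-FLIP, had 13.2 and 13.4 CPM in shGATA3 libraries and 8.85, 8.59 and 7.87 CPM in scramble libraries. MYO7B, an unconventional myosin, had 206 and 267 CPM in shGATA3 libraries and 143, 129 and 139.5 CPM in scramble libraries. None of these groups overlapped, and the log2 fold changes were 1.04, 0.65 and 0.79 (edgeR adjusted p = 6.33e-06, 2.49e-05 and 0.00013). STRA6, the cellular receptor for retinol binding protein, had 7.32 and 8.62 CPM in shGATA3 libraries and 4.49, 4.59 and 3.72 CPM in scramble libraries, and PHLDA1 had 19.98 and 26.8 CPM in shGATA3 libraries and 13.5, 11.3 and 11.45 CPM in scramble libraries (edgeR adjusted p = 0.00022 and 0.000177).

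The remaining genes of this group were CA9 (carbonic anhydrase 9), SYNE2 (a nuclear envelope protein), NOG (the BMP antagonist noggin), LPP, LINC00342 and USF3, with log2 fold changes of 0.74 to 2.65. All of them lost the call without knockdown library 2, where the log2 fold changes were 1.01, 0.73, 0.80, 0.69, 0.76 and 0.66. The 15 genes were chosen partly by their change in knockdown library 1, so a call kept in that fit is no independent check.

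**Figure D2:**
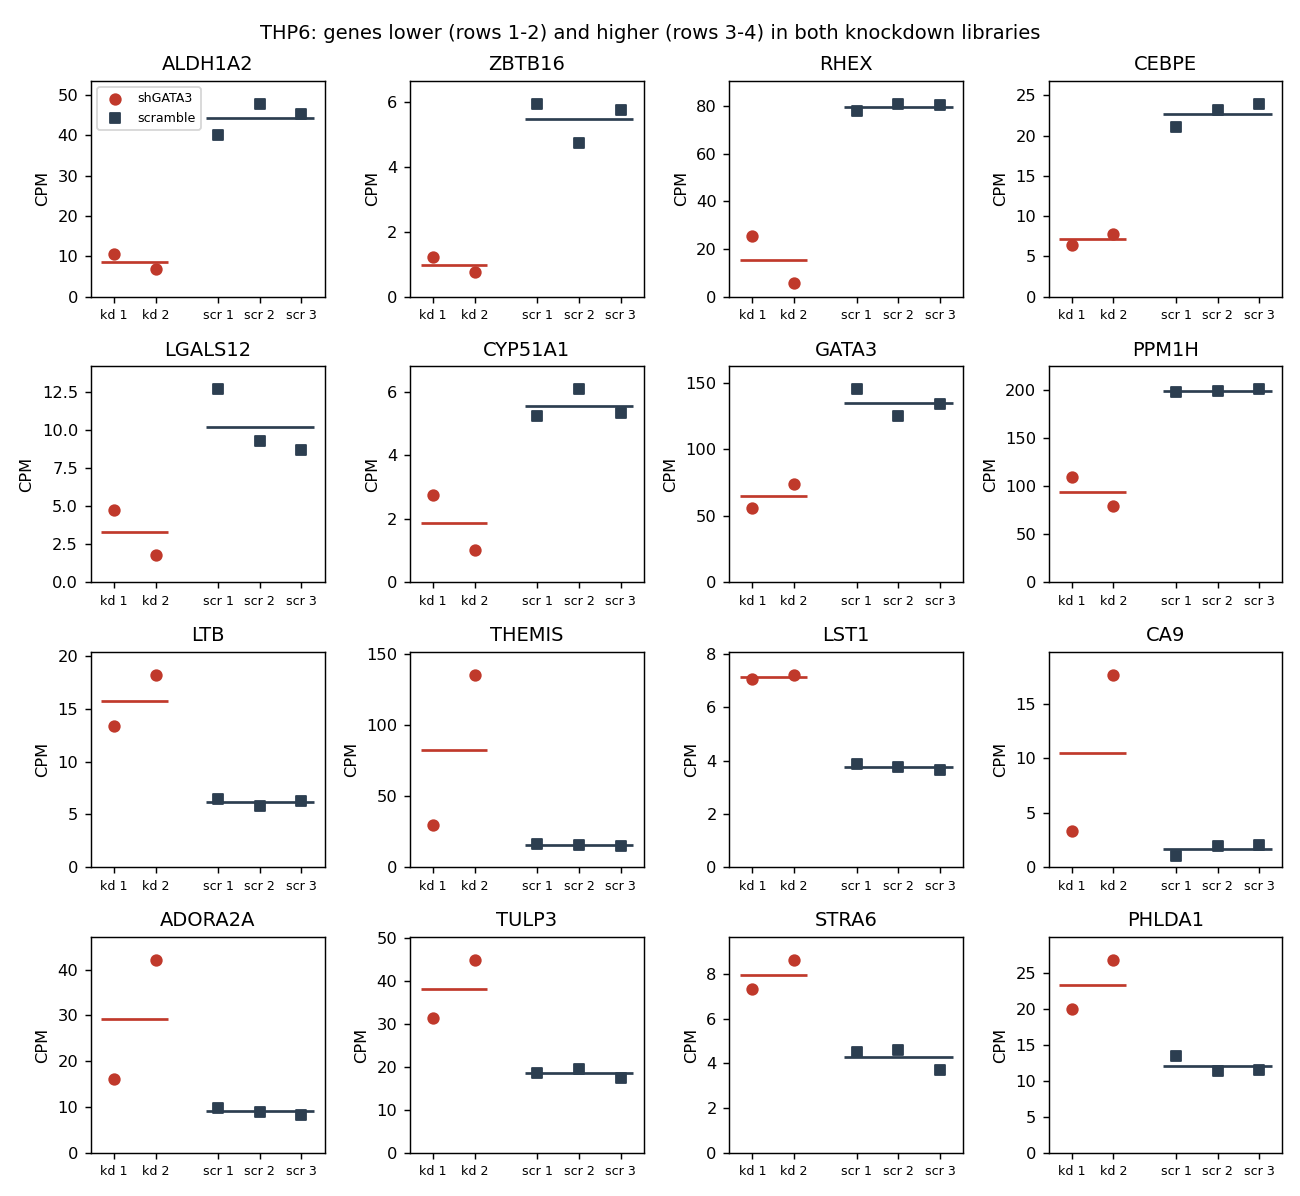
CPM in each THP6 library for the 8 genes furthest below (upper 2 rows) and the 8 furthest above (lower 2 rows) the scramble libraries in both knockdown libraries. Red circles are shGATA3 libraries, dark squares scramble libraries and lines group means, and in no panel do the groups overlap.

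Some of these genes lie side by side. LTB and LST1 are separated by 3.6 kb on chromosome 6 and both rose. CEBPE and SLC7A8 are separated by 5.68 kb on chromosome 14 and both fell. CASC15, which fell, starts 66.2 kb from SOX4, an HMG box factor of lymphoid progenitors. SOX4 had 155 and 156 CPM in shGATA3 libraries and 212, 194 and 204.5 CPM in scramble libraries (log2 fold change -0.39, SE 0.0784, edgeR adjusted p = 0.00296). Among the other named genes that rose, CA9 and SIT1 lie 22.9 kb apart on chromosome 9. The pairs were looked for within 100 kb, a window chosen after the values were seen.

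The same genes were then read in CCRF-CEM and MOLT4, the T-ALL lines of the series in which GATA3 was also lower in shGATA3 than in scramble libraries and which share no library with THP6. In SUP-T1, the remaining T-ALL line, GATA3 averaged 81.7 CPM in shGATA3 and 24.1 CPM in scramble libraries, against the labels, and SUP-T1 was not used for this reading. Of the 14 genes lower in both THP6 knockdown libraries, 11 were also called lower in CCRF-CEM, where 5.43% of all genes were, and 8 in MOLT4, where 10.3% were. Of the 15 higher genes, 6 were called higher in CCRF-CEM (3.00% of all genes) and 5 in MOLT4 (8.88%), and 1, NOG, was called lower in MOLT4. ALDH1A2 averaged 125 CPM in shGATA3 and 243 CPM in scramble CCRF-CEM libraries (n = 3 each), and 10.8 CPM in shGATA3 and 644 CPM in scramble MOLT4 libraries (n = 2 each). Its log2 fold change was -0.96 in CCRF-CEM and -5.90 in MOLT4 (SE 0.109 and 0.167, edgeR adjusted p = 9.78e-07 and 1.04e-18).

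CEBPE, PPM1H, B4GALT3, CYP51A1 and MAP3K21 were called lower in all 3 lines, and LTB, LST1, TULP3 and MYO7B higher in all 3. LTB averaged 67.6 CPM in shGATA3 and 21.4 CPM in scramble CCRF-CEM libraries, and 16.6 CPM in shGATA3 and 1.35 CPM in scramble MOLT4 libraries. RHEX fell in CCRF-CEM (19.8 CPM in shGATA3 and 102 CPM in scramble libraries, log2 fold change -2.37, edgeR adjusted p = 2.65e-05) but was at 0.0516 CPM in shGATA3 and 0.201 CPM in scramble MOLT4 libraries, too low for a reading. THEMIS averaged 15.2 CPM in shGATA3 and 15.4 CPM in scramble CCRF-CEM libraries, and 8.48 CPM in shGATA3 and 9.35 CPM in scramble MOLT4 libraries. Neither difference was called (edgeR adjusted p = 1 and 0.869).

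Of all 366 genes called lower without overlap in THP6, 119 were called lower in CCRF-CEM, which is 32.5% of the THP6 genes and 10.4% of the 1148 called lower in CCRF-CEM. In MOLT4 it was 145, or 39.6% of the THP6 genes and 6.66% of 2176. Of the 667 higher genes, 68 were called higher in CCRF-CEM (10.2%, and 10.7% of its 635) and 108 in MOLT4 (16.2%, and 5.75% of its 1878). Of the same 667, 29 were called lower in CCRF-CEM and 77 in MOLT4. Among all tested genes, 5.43% were called lower in CCRF-CEM and 10.3% in MOLT4, and 3.00% and 8.88% higher. The median log2 fold change in CCRF-CEM and MOLT4 was 0.06 and -0.03 for the 667 genes, and -0.20 and -0.28 for the 366.

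**Figure D3:**
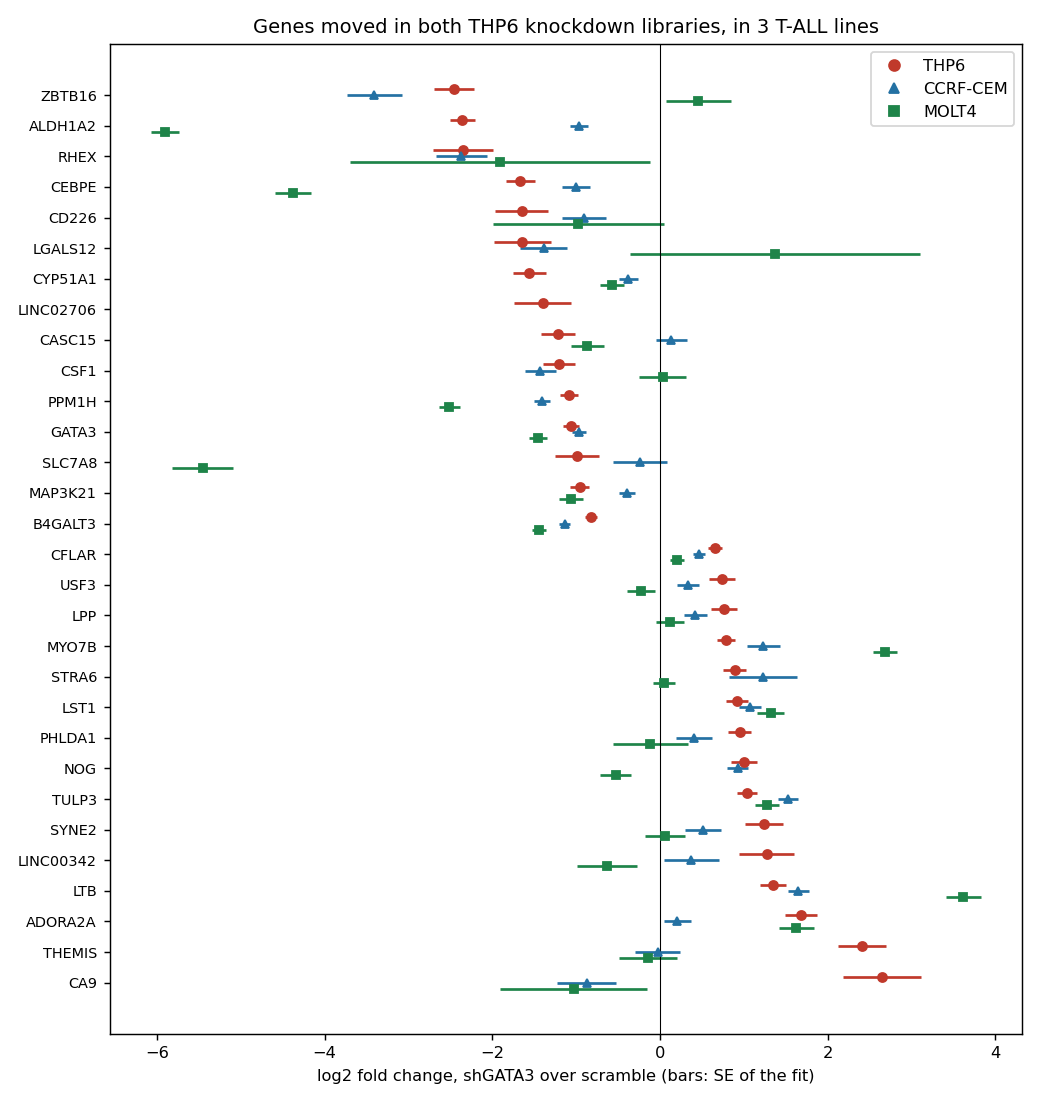
Log2 fold change of shGATA3 over scramble libraries, with the SE of the edgeR fit as bars, in THP6, CCRF-CEM and MOLT4 for the genes that moved in both THP6 knockdown libraries. ALDH1A2, CEBPE, PPM1H and B4GALT3 lie left of 0 and LTB, LST1, TULP3 and MYO7B right of 0 in all 3 lines, whereas THEMIS and CA9 lie right of 0 in THP6 alone.

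The THP6 change was tested against the mean change of CCRF-CEM and MOLT4 in the same edgeR model. It was higher in THP6 for 1542 genes (7.29%) and lower for 636 (3.01%). Among genes that moved in both knockdown libraries, the difference was 2.49 for THEMIS (SE 0.358, adjusted p = 4.07e-05). It was -1.99 for ID3, an inhibitor of E proteins. ID3 had 66.7 and 24.1 CPM in shGATA3 THP6 libraries and 77.6, 82.9 and 73.4 CPM in scramble THP6 libraries, and was called higher in both other lines (log2 fold changes 1.05 and 1.36). TNFSF10, which encodes the death ligand TRAIL, had 12.7 and 8.16 CPM in shGATA3 THP6 libraries and 16.4, 16.7 and 16.2 CPM in scramble THP6 libraries, and was called lower in CCRF-CEM (-0.75) and higher in MOLT4 (2.58). Without knockdown library 2 the THP6 change of these genes had an edgeR adjusted p of 0.645 for ID3 and 0.384 for TNFSF10. GATA3 did not pass the test of a difference (0.15, SE 0.113, adjusted p = 0.446).

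Among 18 tested genes of the GATA family and its partners, 1 was called higher and 5 lower, all 5 lower ones without overlap, beside 5.56% of all tested genes called higher, 1.84% called lower and 1.73% lower without overlap. The list holds GATA3 itself, the target of the hairpin, which is 1 of the 5 lower ones, so the count is not of partners alone. The median log2 fold change of the list was -0.21, beside 0 over all tested genes. ZFPM1, which encodes the GATA cofactor FOG1, had 74.8 and 81.7 CPM in shGATA3 libraries and 119, 111 and 101 CPM in scramble libraries. LYL1, a basic helix-loop-helix factor of early progenitors, had 73.8 and 78.3 CPM in shGATA3 libraries and 105, 123 and 123 CPM in scramble libraries. In both genes the 2 knockdown libraries were alike and below all controls (log2 fold changes -0.49 and -0.62, edgeR adjusted p = 0.0101 and 0.00392). MYB, a factor of haematopoietic progenitors, had 553 and 265 CPM in shGATA3 libraries and 755, 626 and 661 CPM in scramble libraries (log2 fold change -0.73, edgeR adjusted p = 0.00299). ETS1 also fell, by 0.58 on the log2 scale. When knockdown library 2 was left out, LYL1 kept the call (edgeR adjusted p = 0.0228) and ZFPM1, MYB and ETS1 lost it (0.0977, 0.202 and 0.46).

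Of 30 T lineage transcription factors, 3 were called higher and 5 lower, beside 5.56% and 1.84% of all tested genes, and the lower ones were ZBTB16, MYB, ETS1, SOX4 and ID3. EGR1, an immediate early factor downstream of the T cell receptor, had 6.49 and 4.88 CPM in shGATA3 libraries and 3.415, 3.28 and 2.80 CPM in scramble libraries. It was the 1 member of this list that was called higher without overlap (log2 fold change 0.84, edgeR adjusted p = 0.00517). HHEX, a homeobox factor that is activated in some T-ALL, had 14.8 and 8.58 CPM in shGATA3 libraries and 21.2, 22.8 and 20.4 CPM in scramble libraries (-0.88, edgeR adjusted p = 0.00133). With knockdown library 1 alone, the adjusted p was 0.00821 for EGR1, 0.0395 for SOX4 and 0.0981 for HHEX.

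Genes of the T cell receptor complex and its proximal signalling moved in both directions. Of 44 tested members, 8 were called higher and 3 lower (5.56% and 1.84% of all tested genes), and 6 and 3 of them did not overlap (3.16% and 1.73% of all tested genes). TESPA1, which links the receptor to calcium signalling in thymocytes, had 53.9 and 52.7 CPM in shGATA3 libraries and 81.2, 85.2 and 82.1 CPM in scramble libraries. Both knockdown libraries were alike and well below the controls (log2 fold change -0.64, SE 0.0709, edgeR adjusted p = 3.19e-06). The adaptor TRAT1 also fell (log2 fold change -0.95, edgeR adjusted p = 0.0282). SIT1, an adaptor that damps receptor signalling, had 127 and 216 CPM in shGATA3 libraries and 103, 105 and 96.9 CPM in scramble libraries, and the adaptor LAT 218 and 236 CPM in shGATA3 libraries and 197, 169 and 167 CPM in scramble libraries (edgeR adjusted p = 0.000449 and 0.0165). The activation antigen CD69 had 3.64 and 15.98 CPM in shGATA3 libraries and 2.83, 2.66 and 2.27 CPM in scramble libraries (edgeR adjusted p = 0.000533). The receptor chains CD3D and CD3E did not pass the test (log2 fold changes 0.02 and -0.11, edgeR adjusted p = 0.995 and 0.441). The chain CD3G had 149 and 74.6 CPM in shGATA3 libraries and 142, 133 and 125 CPM in scramble libraries. CD247 had 70.3 and 113 CPM in shGATA3 libraries and 70.5, 67.3 and 69.4 CPM in scramble libraries. In knockdown library 2, CD3G was thus below all controls and CD247 above them. Of the 9 non-overlapping members, THEMIS and TESPA1 alone kept the call without knockdown library 2, where the edgeR adjusted p was 0.108 for SIT1, 0.416 for LAT, 0.53 for CD69 and 0.64 for TRAT1.

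Of 35 homing, adhesion and motility genes 4 were called higher and 10 lower, beside 5.56% and 1.84% of all tested genes, and all 10 lower ones did not overlap (1.73% of all tested genes), while the median log2 fold change of the list was 0. ITGA4, the alpha chain of the integrin VLA-4, had 99.8 and 75.4 CPM in shGATA3 libraries and 148, 121 and 128 CPM in scramble libraries. S1PR1, the sphingosine 1-phosphate receptor for exit from lymphoid tissue, had 21.6 and 9.63 CPM in shGATA3 libraries and 31.8, 22.45 and 25.0 CPM in scramble libraries. All of these values lay below the controls, S1PR1 in knockdown library 1 only just (edgeR adjusted p = 0.00383 for ITGA4 and 0.0188 for S1PR1). LGALS1 (galectin 1) rose, with 334 and 715 CPM in shGATA3 libraries and 239, 293 and 272 CPM in scramble libraries (edgeR adjusted p = 0.000907). In the fit that leaves out knockdown library 2, no member of the list was called, and the edgeR adjusted p was 0.344 for ITGA4, 0.627 for S1PR1 and 0.445 for LGALS1.

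Th2 genes, the best known GATA3 programme in mature T cells, were sparse. Of 15 tested, 2 were called lower, the chemokine receptor CCR8 and the receptor GPR174, beside 1.84% of all tested genes. GPR174 had 25.3 and 15.2 CPM in shGATA3 libraries and 34.4, 32.1 and 33.3 CPM in scramble libraries (edgeR adjusted p = 0.00311), and CCR8 was below 2 CPM in every library. Among 25 Th1 and cytotoxic genes, GZMM was called higher and EOMES, GZMA and PRF1 lower, beside 5.56% and 1.84% of all tested genes. GZMA, a granzyme, had 90.6 and 32.8 CPM in shGATA3 libraries and 109, 119 and 118 CPM in scramble libraries (edgeR adjusted p = 0.0174). Among 38 genes of cytokine receptors and JAK-STAT signalling, IL9R had 13.7 and 17.2 CPM in shGATA3 libraries and 29.7, 24.0 and 23.5 CPM in scramble libraries (log2 fold change -0.74, edgeR adjusted p = 0.00111), and was called without knockdown library 2 as well (-0.91, adjusted p = 0.00159), whereas the adjusted p without it was 0.356 for GPR174 and 0.503 for GZMA.

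Of 40 mitotic genes 19 were called higher, all of them without overlap, beside 5.56% of all tested genes called higher and 3.16% without overlap. Knockdown library 1 lay above all 3 controls for 37 of the 40 and below them for 1, and knockdown library 2 lay above them for 25 and below them for 11, and the list median log2 change was 0.21 in library 1 and 0.25 in library 2. Of all tested genes, 29.4% lay above and 20.2% below the controls in library 1, and 35.1% above and 34.2% below in library 2. MKI67, the proliferation antigen Ki-67, had 430 and 1172 CPM in shGATA3 libraries and 266, 261 and 337 CPM in scramble libraries. CENPF, a kinetochore protein, had 224 and 349 CPM in shGATA3 libraries and 156, 144 and 181 CPM in scramble libraries. TOP2A, the DNA topoisomerase of dividing cells, had 822 and 873 CPM in shGATA3 libraries and 657, 626 and 685 CPM in scramble libraries. For all 3 the groups did not overlap, and the MKI67 change was chiefly in library 2 (edgeR adjusted p = 0.000797, 0.00196 and 0.0174). Of 43 S phase genes 7 were called higher, 3 without overlap, among them the ribonucleotide reductase gene RRM2 (323 and 450 CPM in shGATA3 libraries, 278, 283 and 262 CPM in scramble libraries). No mitotic gene is among those called without knockdown library 2, where the edgeR adjusted p was 0.442 for MKI67, 0.38 for CENPF and 0.38 for TOP2A.

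The glycolysis and hypoxia list showed how far the 2 knockdown libraries differed. Of 44 members 37 were called higher (5.56% of all tested genes), 16 of them without overlap (3.16%), and the median log2 change was 0.09 in knockdown library 1 and 1.39 in knockdown library 2. SLC2A1, the glucose transporter GLUT1, had 43.5 and 456 CPM in shGATA3 libraries and 48.0, 46.9 and 47.2 CPM in scramble libraries. SLC2A3, the transporter GLUT3, had 33.0 and 527 CPM in shGATA3 libraries and 31.6, 25.3 and 29.03 CPM in scramble libraries. MIR210HG, the host transcript of a hypoxia-induced microRNA, had 2.84 and 75.8 CPM in shGATA3 libraries and 2.504, 2.93 and 2.66 CPM in scramble libraries. In each case knockdown library 1 was at or near the level of the controls. The calls of SLC2A1 and MIR210HG (edgeR adjusted p = 0.000501 and 0.00042) thus rest on knockdown library 2, and no member of the list was called without it.

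CA9 is the member that was furthest above the controls in both libraries, with 3.365 and 17.65 CPM in shGATA3 libraries and 1.07, 2.00 and 2.03 CPM in scramble libraries. LDHA, lactate dehydrogenase A, had 1139 and 2812 CPM in shGATA3 libraries and 834, 1061 and 956 CPM in scramble libraries (edgeR adjusted p = 0.000812). For LDHA, knockdown library 1 exceeded the highest control by little, and the edgeR adjusted p without library 2 was 0.524.

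Heat shock and chaperone genes followed a like pattern, with 14 of 26 called higher (5.56% of all tested genes), 7 of them without overlap (3.16%), and median log2 changes of 0.10 in knockdown library 1 and 0.47 in knockdown library 2. HSPA1B, an inducible HSP70, had 119 and 1220 CPM in shGATA3 libraries and 139, 147 and 164 CPM in scramble libraries. HSP90AA1, the inducible HSP90, had 1470 and 2544 CPM in shGATA3 libraries and 1036, 1398 and 1312 CPM in scramble libraries. HSPA1B was thus lowest in knockdown library 1 and highest in knockdown library 2 of the 5 libraries. HSPA1B has a near-identical copy, HSPA1A, so the division of reads between them is uncertain. Of 34 immediate early genes 12 were called higher and 2 lower (5.56% and 1.84% of all tested genes), 4 and 2 of them without overlap (3.16% and 1.73%).

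Other lists were lower in knockdown library 2 but not in knockdown library 1. Of 68 cytosolic ribosomal protein genes 62 lay below all 3 controls in library 2 and none did in library 1, where 19 lay above, with median log2 changes of -0.36 in library 2 and 0.04 in library 1. Of all tested genes, 34.2% lay below the controls in library 2, and 20.2% below and 29.4% above them in library 1. None of the 68 was called by edgeR or DESeq2 in the fit of both libraries, and 8 had an unadjusted edgeR p below 0.05. Ribosomal protein genes took 6.93% and 5.20% of counts in shGATA3 libraries and 6.501% to 7.31% in scramble libraries. Genes of the integrated stress response and amino acid supply (27 tested, 2 called higher and 2 lower, beside 5.56% and 1.84% of all tested genes) had medians of 0.04 in library 1 and -0.74 in library 2. SLC7A11, the cystine transporter, had 89.1 and 17.4 CPM in shGATA3 libraries and 68.5, 70.2 and 70.5 CPM in scramble libraries, so the 2 knockdown libraries lay on opposite sides of the controls (edgeR adjusted p = 0.503). MYC had 194 and 44.5 CPM in shGATA3 libraries and 230, 206 and 215 CPM in scramble libraries (log2 fold change -0.86, edgeR adjusted p = 0.0412, and 0.635 without knockdown library 2). Of 31 cholesterol and fatty acid genes, CYP51A1 was the 1 called, as lower, beside 1.84% of all tested genes called lower.

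**Figure D4:**
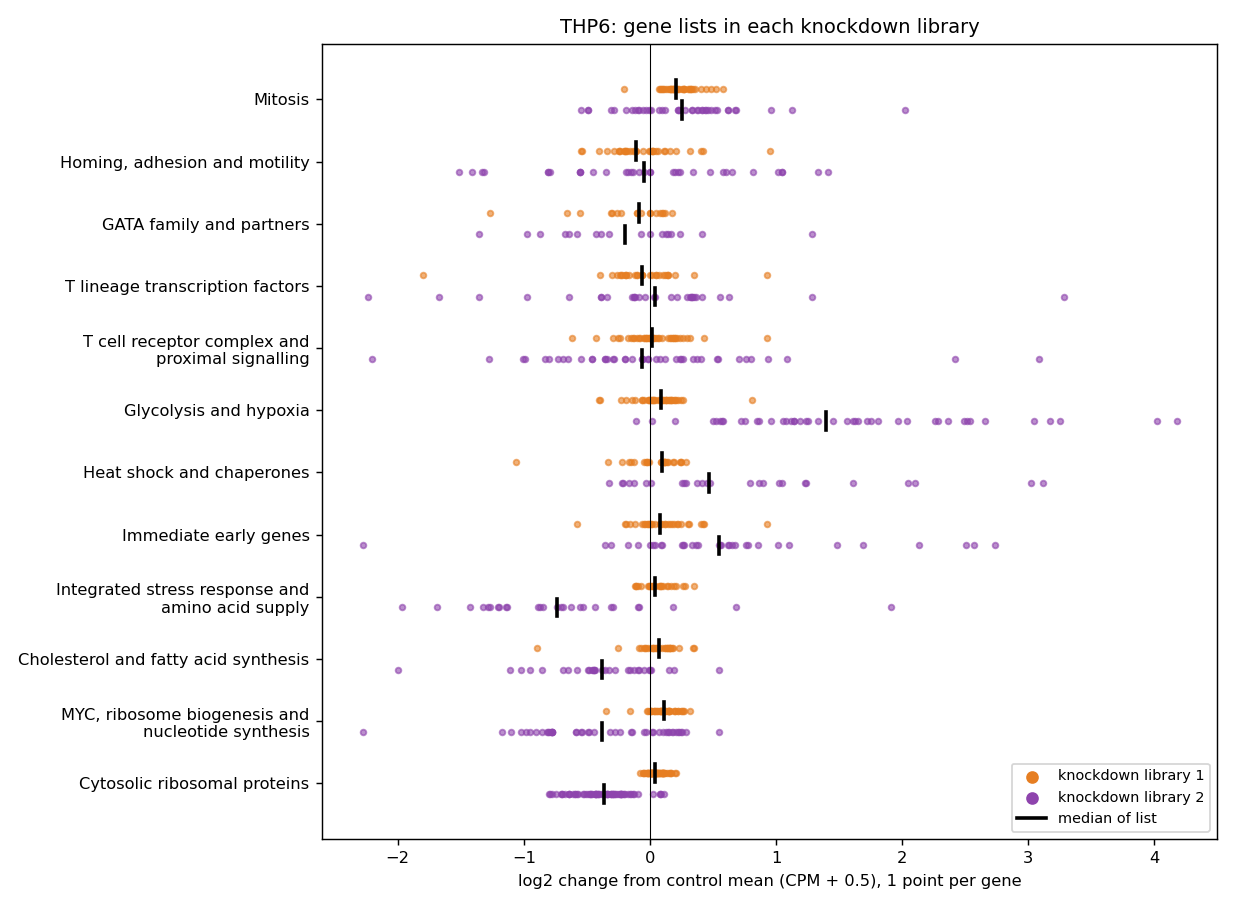
Log2 change from the mean of the scramble libraries for each gene of 12 lists, in knockdown library 1 (orange, upper row of each pair) and knockdown library 2 (purple, lower row). The bars are medians, which are 0.21 and 0.25 for mitosis but 0.09 and 1.39 for glycolysis and hypoxia and 0.04 and -0.36 for ribosomal proteins.

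Between the 2 knockdown libraries directly, 402 of 8237 genes with at least 20 CPM were higher by 2-fold or more in library 2 (4.88%) and 403 were lower (4.89%), whereas 6 genes passed 2-fold between controls. The median absolute log2 ratio was 0.40 between the knockdown libraries and 0.06 to 0.11 between control libraries. With 1 library on each side this has no test. Besides the genes above, the largest ratios of library 2 over library 1 were in PPFIA4, the transcriptional repressor BHLHE40, the pseudogene HK2P1 and the glycolytic regulator PFKFB4. BHLHE40 had 40.1 and 452 CPM in shGATA3 libraries and 48.3, 44.2 and 45.1 CPM in scramble libraries. In the other direction, ZACN had 29.5 and 0.105 CPM in shGATA3 libraries and 22.9, 27.4 and 34.1 CPM in scramble libraries. UTP14C had 22.1 and 0 CPM in shGATA3 libraries and 10.3, 13.5 and 10.8 CPM in scramble libraries. SYNC had 20.6 and 0.419 CPM in shGATA3 libraries and 25.4, 22.8 and 23.3 CPM in scramble libraries. UTP14C and SYNC also varied between replicates of the same group in other lines. UTP14C had 0, 4.38 and 0.511 CPM in MyLa scramble libraries, and SYNC 5.52, 0.377 and 2.37 CPM in CCRF-CEM scramble libraries. ZACN shares bases with EXOC7 and SRP68 on the other strand, and SYNC with RBBP4. The assignment of reads to these genes was not tested. The largest drop in library 2 was in AC020978.5, an antisense gene that overlaps NFATC3, with 34.2 and 0 CPM in shGATA3 libraries and 0.520, 17.9 and 17.9 CPM in scramble libraries, whose controls also differed. With smaller ratios, CTSG, which encodes cathepsin G, had 106 and 10.1 CPM in shGATA3 libraries and 98.7, 102 and 107 CPM in scramble libraries, and the alanine transaminase gene GPT2 98.3 and 13.4 CPM in shGATA3 libraries and 108, 98.9 and 103 CPM in scramble libraries. None of these 6 genes was called (edgeR adjusted p = 0.402 for ZACN, 1 for UTP14C, 0.519 for SYNC, 0.908 for AC020978.5, 0.356 for CTSG and 0.128 for GPT2).

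Of 46 interferon response genes 6 were called higher and 2 lower (5.56% and 1.84% of all tested genes), 5 and 2 without overlap (3.16% and 1.73%). EPSTI1 had 10.8 and 7.26 CPM in shGATA3 libraries and 17.8, 17.3 and 16.2 CPM in scramble libraries (log2 fold change -0.92, edgeR adjusted p = 0.000797, and 0.0428 without knockdown library 2), and GBP2, a guanylate binding protein, 3.47 and 7.5 CPM in shGATA3 libraries and 1.92, 2.38 and 2.51 CPM in scramble libraries. Of 30 NF-kB genes 5 were called higher, 4 of them without overlap, beside the same 5.56% and 3.16%. NFKB2 had 30.9 and 84.5 CPM in shGATA3 libraries and 27.5, 29.3 and 29.4 CPM in scramble libraries (edgeR adjusted p = 0.00225), and its rise was nearly all in library 2. Without that library the edgeR adjusted p was 0.471 for GBP2 and 0.869 for NFKB2.

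Of the 8 tested B cell markers 2 were called higher, beside 5.56% of all tested genes. CD79A had 12.6 and 13.6 CPM in shGATA3 libraries and 9.07, 9.38 and 9.76 CPM in scramble libraries and was called higher (edgeR adjusted p = 0.00377). BLK, a kinase of the Src family, had 62.6 and 43.8 CPM in shGATA3 libraries and 66.3, 58.8 and 59.95 CPM in scramble libraries, so that knockdown library 2 was below the controls. Of the 10 B cell markers 1, BLNK, was at 0 in all 5 libraries. The erythropoietin receptor EPOR, the receptor that RHEX is known to act with, had 40.5 and 41.6 CPM in shGATA3 libraries and 53.4, 48.3 and 46.7 CPM in scramble libraries (log2 fold change -0.27, edgeR adjusted p = 0.042). Once knockdown library 2 was left out, the edgeR adjusted p was 0.151 for CD79A and 0.356 for EPOR. In bulk RNA, fewer cells that express a gene and less RNA per cell cannot be told apart.

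Change also went with transcript length, and most in knockdown library 2. Among protein-coding genes that averaged at least 5 CPM, sorted by their longest annotated transcript, the median log2 change from the control mean was -0.25 in library 2 for genes under 1 kb and 0.48 for genes over 12 kb, beside 0.08 and 0.17 in library 1. Genes called higher were 1.76% of those under 1 kb and 33.3% of those over 12 kb. The 667 genes higher without overlap had a median longest transcript of 4386 bases, the 366 lower ones 3152 and all tested genes 2850. Removing each library's trend on length in the edgeR fit gave 1350 higher (6.39%) and 535 lower calls (2.53%), and 22 of the 40 mitotic genes were called higher in it. The 15 genes named as higher in both libraries were all called in that fit. So were 14 of the 15 named as lower, all but LINC02706, where GATA3, the target of the hairpin, is counted among the 15. Of the glycolysis and hypoxia genes 37 were called higher in it. The median log2 fold change of ribosomal protein genes was -0.08 in that fit and -0.15 in the main fit. Beyond these values, the part of transcript length in the other results was not tested. With DESeq2 on all libraries, 1555 genes were higher (10.1% of 15399) and 536 lower (3.48%).

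**Figure D5:**
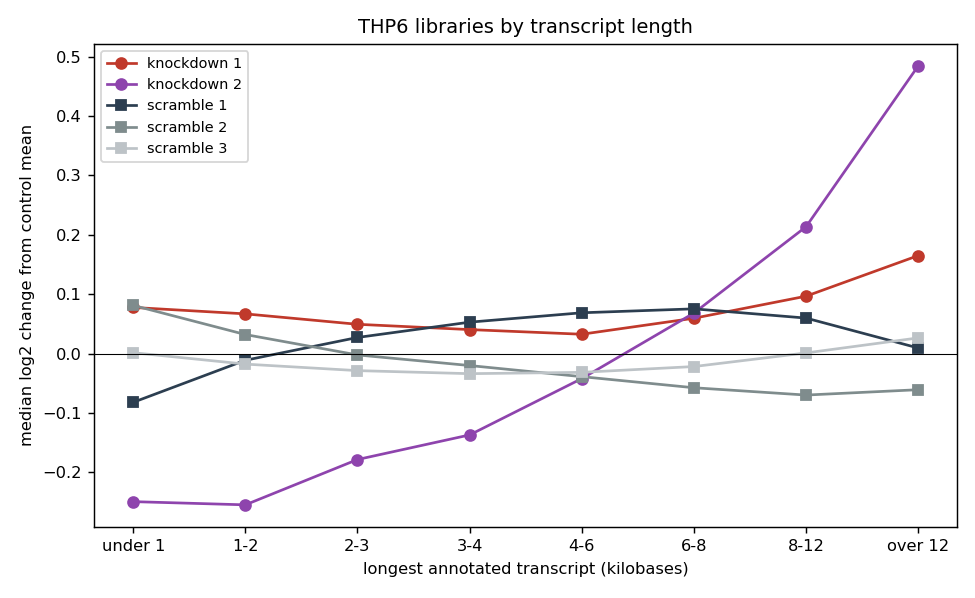
Median log2 change from the mean of the scramble libraries against the longest annotated transcript of protein-coding genes that averaged at least 5 CPM, for the 2 shGATA3 and 3 scramble libraries. Knockdown library 2 runs through -0.25 for genes under 1 kb and 0.48 for genes over 12 kb, whereas the other 4 libraries stay between -0.08 and 0.17.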

How the data were processed

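RNA from THP6 cells was sequenced as poly(A)-selected libraries. The deposited table holds RSEM expected counts per gene, which are whole numbers already. Per the submitters' processing notes the tools were cutadapt 2.3, STAR 2.7.8a and RSEM 1.3.3, with the build GRCh38, while the annotation release and strand option are not given in these sources. Of 60623 gene identifiers 58516 (96.52%) are in GENCODE 29, which was used for names, coordinates and transcript lengths. A further 5 rows without a gene identifier held 0 counts.

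Library totals over the series were 18.62 to 50.63 M. The counts were filtered (filterByExpr), scaled by TMM and fitted with edgeR 4.0.16 (limma 3.58.1, R 4.3.3) as 14 groups over 36 libraries, with quasi-likelihood tests and Benjamini-Hochberg adjustment at 0.05. CPM uses the scaled totals, and changes of single libraries are on the log2(CPM + 0.5) scale, which understates low genes. Alternatives included DESeq2 1.42.0, other filters, other sets of libraries, sample weights, a minimum fold and a replicate block. The steps were tested on simulated data. Both simulated THP6 knockdown libraries had the same mean for each gene, so a difference like that between the real ones was not covered.

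Named genes were GATA3, the 15 highest and 15 lowest called genes without overlap and with at least 5 CPM by the smaller change of the 2 knockdown libraries, up to 4 such members of each list per direction (the 3 most abundant where there was none), the 8 most and least abundant in library 2 over 1 and the 5 extremes of the difference from CCRF-CEM and MOLT4. GATA3 is itself among the 15 lowest. Members and lists were chosen with earlier results of these data known. Whether replicate numbers pair the THP6 libraries could not be told, and the main fit did not pair them. Promoter windows were matched by symbol. Python 3.11.15 drew the figures. Some results are not reported here.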

Additional observations from a re-analysis of the deposited data

Results flagged for a closer look

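The THP6 change differed from the mean change of CCRF-CEM and MOLT4 (edgeR test of the difference over all genes, adjusted p below 0.05) for 70 of the 154 named genes. The values here are log2 differences, THP6 minus that mean, of the 29 among them that were ranked by their change in both knockdown libraries, were extremes of this difference or belong to the p53 and NF-kB lists, and the others are not listed here. For genes that fell in both THP6 knockdown libraries, the difference was 1.08 for ALDH1A2, 1.02 for CEBPE, 0.87 for PPM1H, 1.86 for SLC7A8 and 0.47 for B4GALT3. MOLT4 weighs heavily in this mean, and against CCRF-CEM alone the THP6 fold change was the lower one for ALDH1A2 (-2.36 in THP6, -0.96 in CCRF-CEM), CEBPE (-1.67, -1.004) and SLC7A8 (-0.99, -0.23). The difference was -1.09 for CYP51A1, -0.85 for CASC15, -0.82 for GADD45A, -1.99 for ID3, -1.68 for AC110285.6, -1.57 for TNFSF10 and -1.36 for TMOD1. TNFSF10 had a log2 fold change of -0.65 in THP6, -0.75 in CCRF-CEM and 2.58 in MOLT4. Its THP6 value was thus below that of MOLT4 and not that of CCRF-CEM. TMOD1 also went in opposite directions in the other lines, with -1.06 in CCRF-CEM and 1.17 in MOLT4, where it was not called.

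For genes that rose, it was -1.29 for LTB and -1.17 for MYO7B, with log2 fold changes of 1.35 and 0.79 in THP6, 1.65 and 1.23 in CCRF-CEM and 3.62 and 2.69 in MOLT4. It was 2.49 for THEMIS, 3.60 for CA9, 0.77 for ADORA2A, 0.95 for SYNE2, 0.81 for NOG, 1.40 for LINC00342, 0.69 for USF3 and 0.32 for CFLAR. It was 1.45 for both TRAF1 and NFKB2, 0.59 for TNIP1, 3.83 for SLC2A3, 4.44 for SDK2, 4.09 for N4BP3 and 3.02 for LINC01679. For several of these the THP6 change was mostly that of knockdown library 2. SLC2A3 had 33.0 and 527 CPM in shGATA3 libraries and 25.3 to 31.6 CPM in scramble libraries. SDK2 had 13.2 and 70.8 CPM in shGATA3 libraries and 9.07 to 10.7 CPM in scramble libraries. A difference from the mean need not be a difference from each line. ADORA2A also rose in MOLT4 (log2 fold change 1.63) and was not called in CCRF-CEM (0.21). NOG rose in CCRF-CEM (0.93) and fell in MOLT4 (-0.53). SDK2 fell most in MOLT4 (-3.97, beside -0.68 in CCRF-CEM).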

How the results depend on the processing

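Of the 1564 calls (1033 without overlap, and 2178 for the difference from CCRF-CEM and MOLT4), a fit of the 5 THP6 libraries alone gave 0 and 0 by edgeR and 21 and 21 by DESeq2, an alternative chosen after seeing the data. Sample weights in limma-voom gave 9, 9 and 247, and a test against a minimum absolute log2 change of 1 (glmTreat) 8, 6 and 37. Fitting the replicate number as a block gave 472, 381 and 1225, and deviations of same-numbered libraries correlated over 0.1 in 7 of 17 pairs, which were all 3 of MyLa (0.321 to 0.377), both of H9 (0.282 and 0.456), 1 of CCRF-CEM (0.244) and 1 of the 2 of THP6 (0.114, the other at -0.000548). The deviations of 2 knockdown libraries from their own mean mirror each other, so these values cannot tell whether the numbers pair the THP6 libraries. Leaving out 1 THP6 library gave 74 to 7900 calls, 74 to 7898 without overlap and 665 to 7523 for the difference, with 806 calls (638 without overlap) without scramble library 2 and 997 without scramble library 3. With no filter there were 2338 calls, and 2780 for the difference. GATA3 lay between -1.27 and -0.87 when 1 library was left out, at -1.05 in the separate edgeR fit (adjusted p = 0.753) and at -1.06 in glmTreat (adjusted p = 1). Among the named genes that were called, the sign turned without knockdown library 2 for BHLHE40 (-0.19), SLC2A1 (-0.12), HSPA1B (-0.33) and HK2P1 (-0.74). Over the libraries left out in turn, these reached 3.30, 3.27, 3.02 and 2.84, and AC020978.5 ran between -11.36 and 1.51. The cause was not tested. With 2 knockdown libraries that differ this much, the number of calls is poorly determined.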
